A study of Homo sapiens with 12 samples.

Results

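Cells given both compounds of the study, the clickable electrophilic purine (CEP) and 4-thiouridine (4SU), were compared with cells given the solvent DMSO. The comparison holds 6 of the 12 RNA-Seq libraries of the series, the 3 labelled CEP plus 4SU and the 3 labelled DMSO, and was chosen by these labels, not by any measured value. All libraries were made from HEK293T, a human embryonic kidney cell line. CEP is the purine probe AHL-Pu-1, which reacts with cysteines of proteins and carries an alkyne for click chemistry, and the CEP plus 4SU cells received it at 25 µM for 1 h. 4SU, a uridine analog that cells build into new RNA, was given at 100 µM for 16 h. The DMSO cells received neither compound. The protocol shared by the samples includes UV crosslinking, after which CEP was added in serum-free medium, and gives no separate word on UV exposure of the cells that lacked 4SU. Each group is 3 independent replicates of a single line, so p-values measure the spread between these libraries. The study's general statement is that experiments were repeated on separate days, but which libraries share a day or batch was not given, so a batch and the treatment cannot be told apart.

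Polyadenylated RNA was counted by gene, and 17729 of 58735 genes had enough counts to be tested. Library totals were 20325464 to 24644734 counts in DMSO and 18402617 to 20673502 with both compounds. Results of 2 fits are given side by side, the first on the counts as they stand and the second after removal, library by library, of the trend that relates expression to GC content, the percentage of G and C in a gene's exons. They are called the unadjusted and the GC-adjusted fit. A gene is called where edgeR's quasi-likelihood test gives a Benjamini-Hochberg adjusted p under 0.05, and fold changes are on the log2 scale. Levels are given as CPM, counts scaled to the size of the library, which are not divided by gene length and so are compared between libraries and not between genes. In bulk RNA, fewer cells of a kind and less RNA per cell cannot be told apart.

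The cell line's own markers were present, with 10 of 10 lineage genes tested and their summed FPKM (fragment counts scaled by gene length and library size) at 173 to 185 in all 6 libraries. Markers of differentiated kidney summed to 1.89 to 2.29 FPKM with UMOD at 0, and those of blood to 1.82 to 2.52 FPKM with CD3E, CD3D, CD2 and HBB at 0. Markers of melanoma cells, another of the study's lines, summed to 4.86 to 5.59 FPKM with TYR at 0. Of the 4 tested, 1 was called higher unadjusted, DCT, an enzyme of melanin synthesis (1.23, adjusted p = 0.0455, and 0.0587 after adjustment).

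Some background helps to read the gene groups. Tubulin mRNAs are destroyed in the cytoplasm when free tubulin dimers accumulate, and the degradation machinery recognises the first amino acids of the nascent alpha- or beta-tubulin chain as it leaves the ribosome. Immediate early genes such as FOS and JUN are switched on by growth factors and stress without new protein synthesis, and their short-lived mRNAs report recent signalling. Mitochondrial DNA is transcribed from both strands into long precursors, from which tRNAs are cut out between the mRNAs.

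**Figure D1:**
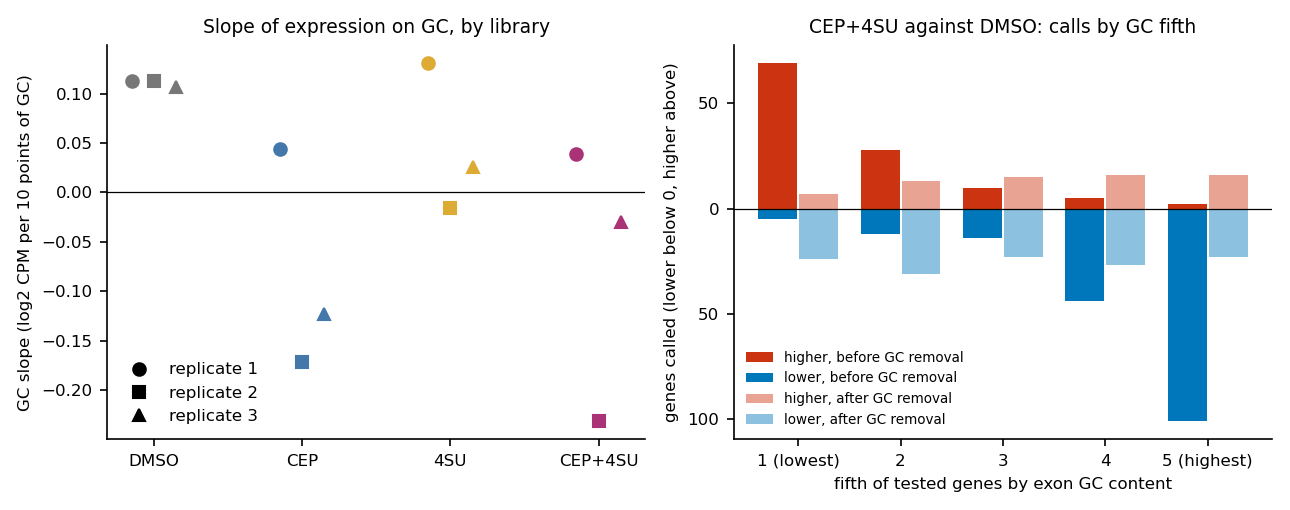
Left, slope of log2 expression on GC content (log2 units per 10 points of GC) in each library, which lay near 0.11 in the 3 DMSO libraries and between −0.23 and 0.04 with CEP plus 4SU. Right, numbers of genes called higher or lower in 5 classes of genes of equal size by GC content, in the unadjusted and the GC-adjusted fit, with 101 lower genes in the GC-richest class before and 23 after adjustment.

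In the unadjusted fit genes that rose with both compounds were AT-rich and long and those that fell GC-rich and short. Among the GC-adjusted calls, made after removal of a GC trend that differed between libraries, the higher genes were slightly richer in GC than the lower ones. The slope of expression on GC content was 0.112, 0.113 and 0.107 log2 units per 10 GC points in the 3 DMSO libraries and 0.039, −0.232 and −0.029 in the 3 CEP plus 4SU libraries. The CEP plus 4SU slopes thus spread more widely than the DMSO slopes, with replicate 2 the farthest from DMSO. Unadjusted, 1.64% of tested genes were called, 0.643% higher (114 genes) and 0.993% lower (176). After adjustment 1.1% were called, 0.378% higher (67) and 0.722% lower (128). Both fits called 115 genes, which is 0.649% of those tested, with 35 higher and 80 lower. The number of unadjusted calls rested on single libraries, with 812 genes without CEP plus 4SU replicate 1 and 14 to 32 without any other library, and was 47 to 105 after adjustment. Groups did not overlap for 288 of the 290 genes called, and for 28.7% of all tested genes. With library size alone as the scale the unadjusted calls were split 209 higher and 137 lower, so the excess of lower genes held with the other scalings and not with this one, while the GC-adjusted split was 67 and 128 with it too.

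Among the 3544 GC-poorest genes the unadjusted calls were 69 higher and 5 lower, and after adjustment 7 and 24. Among the 3544 GC-richest genes they were 2 higher and 101 lower before and 16 and 23 after. Median exon GC was 39.8% among genes called higher, 59.1% among those called lower and 48.4% over all tested. Among the GC-adjusted calls the medians were 50.8% for higher and 47.3% for lower genes, and among calls of both fits, which are limited to unadjusted calls, 44.4% and 54.0%. The GC-adjusted calls were thus spread over all classes of GC content, and the common biological coefficient of variation, the spread between replicates beyond counting error, was 0.114 unadjusted and 0.0892 after adjustment. Gene length moved with the calls too, with medians of 7535 bases for higher and 3579 for lower genes unadjusted, 5333 and 4126 after adjustment, and 6276 and 3620.5 for those of both fits. All 290 genes kept the sign of their change after adjustment.

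Alpha- and beta-tubulins, the subunits of microtubules, had the highest share of lower members of the 63 gene lists. Of 14 tested tubulin genes, 9 fell unadjusted and 7 after adjustment, the same 7 in both fits, and none rose, against 0.993% and 0.722% of all tested genes called lower. The median log2 fold change of the family was −0.62 unadjusted and −0.50 after adjustment, while that of all tested genes was 0.00 in both. Summed over the family, expression was 3895, 3492 and 3554 CPM in the DMSO libraries and 2409, 2004 and 2197 CPM with both compounds, groups that do not overlap. The coding starts of some of the called genes are shown because the known autoregulation reads the amino acids these bases encode. Its part in these changes was not tested. In the printed starts, capitals mark the first 12 bases, the codons of the first 4 amino acids (Met-Arg-Glu-Ile in beta-, Met-Arg-Glu-Cys in alpha-tubulins). They were read from GRCh38 at the start codons annotated in GENCODE 29, at chr6:30720507-30720509 on the plus strand for TUBB, chr9:137241361-137241363 on the plus strand for TUBB4B, chr6:3157461-3157463 on the minus strand for TUBB2A, chr12:49131298-49131300 on the minus strand for TUBA1B and chr2:219253856-219253858 on the minus strand for TUBA4A.
TUBB: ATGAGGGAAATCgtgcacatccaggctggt
TUBB4B: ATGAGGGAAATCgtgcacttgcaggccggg
TUBB2A: ATGCGCGAGATCgtgcacatccaggcgggc
TUBA1B: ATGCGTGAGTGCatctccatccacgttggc
TUBA4A: ATGCGTGAATGCatctcagtccacgtgggg

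TUBB4B, a beta-tubulin expressed in most tissues, was measured at 706, 618 and 667 CPM in DMSO and 383, 326 and 339.6 CPM with both compounds. Each CEP plus 4SU library lay below each DMSO library (log2 fold change −0.92, SE 0.109, adjusted p = 0.000807, and −0.72, adjusted p = 1.59e-05 after adjustment). TUBB, the most abundant beta-tubulin mRNA here by CPM, stood at 1564, 1412 and 1462 CPM in DMSO and 965, 877 and 871 CPM with both compounds, again without overlap (−0.71, SE 0.0933, adjusted p = 0.00131, and −0.62, adjusted p = 0.000302 after adjustment). TUBB2A, a beta-tubulin best known from neurons, was lower by a larger factor, with 48.9, 38.7 and 45.2 CPM in DMSO and 22.4, 19.4 and 19.4 CPM with both compounds (−1.12, SE 0.134, adjusted p = 0.000807, and −0.96, adjusted p = 8.03e-05 after adjustment). Calls of these 3 beta-tubulins held in every fit that left out 1 of the 6 libraries, in both the unadjusted and the adjusted form. TUBB2A shares long stretches with TUBB2B, for which the log2 fold change was −0.53 (adjusted p = 0.0495, and 0.0629 after adjustment), so reads may be split between the pair.

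Among alpha-tubulins, TUBA4A had 16.3, 11 and 14.3 CPM in DMSO and 6.77, 4.74 and 5.68 CPM with both compounds, the largest fall of the family (−1.28, SE 0.224, adjusted p = 0.0159, and −1.11, adjusted p = 0.0112 after adjustment). TUBA1B, TUBA1A and TUBA1C, whose first 30 coding bases are identical and whose reads may be exchanged, all fell in both fits. TUBA1B had 809.6 ± 71.5 CPM in DMSO and 495 ± 86.3 CPM with both compounds (SD, n = 3 each, log2 fold change −0.71, adjusted p = 0.0292). For TUBA1A the level was 128 ± 10.7 CPM in DMSO and 80.5 ± 11.5 CPM with both compounds (−0.67, adjusted p = 0.0160). TUBA1C went from 309 ± 27.6 CPM to 209 ± 21.3 CPM (−0.56, adjusted p = 0.0190). TUBB4A (−0.70) and TUBB2B were called in the unadjusted fit and not after adjustment, when TUBB4A had an adjusted p of 0.0587. TUBB6 was not called, at −0.46 with adjusted p = 0.0505, and its coding start also encodes Met-Arg-Glu-Ile. The other 4 members, TUBB3, TUBB1, TUBA3D and TUBA8, were below 1 CPM and not called, with log2 fold changes of −0.50, 0.47, 0.38 and −0.11.

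TBCD, a cofactor that assembles tubulin heterodimers, also fell, from 158 ± 6.15 CPM to 118 ± 11.5 CPM (−0.43, adjusted p = 0.0262, and −0.30, adjusted p = 0.0155 after adjustment). The 14 tested genes of the chaperonin CCT and of prefoldin, which fold tubulin and actin, gave no call in either fit, and the 38 kinesins, the motors that walk on microtubules, gave 1 higher call unadjusted, KIF14 (0.36), and none after adjustment. The number of tubulins called lower depended on single libraries in the unadjusted fit. It was 4 without DMSO replicate 2, 3 without DMSO replicate 1, DMSO replicate 3, CEP plus 4SU replicate 2 or CEP plus 4SU replicate 3, and 10 without CEP plus 4SU replicate 1, and in the GC-adjusted fit it stayed between 5 and 8.

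Transcripts of the mitochondrial genome fell in part. Of its 13 mRNAs, 2 fell unadjusted and 3 after adjustment, and of its 11 tested rRNAs and tRNAs 3 fell and then 5, with none higher. The lower shares were 15.4% and 23.1% of the mRNAs and 27.3% and 45.5% of the rRNAs and tRNAs. Of all tested genes 0.993% and 0.722% were called lower. Median log2 fold changes were −0.26 and −0.33 for the mRNAs, and −0.32 and −0.42 for the rRNAs and tRNAs, whose unadjusted median ranged from −0.56 to 0 over the alternatives. The summed mRNAs overlapped between groups, at 11332, 12969 and 14143 CPM in DMSO and 9489.9, 10794 and 11985 CPM with both compounds. Mitochondrial genes took 1.27 to 1.65% of counts in DMSO and 1.16 to 1.40% with both, ranges that overlap too.

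MT-ND2, an mRNA for a subunit of respiratory complex I at chrMT:4470-5511, had 928, 1006 and 1069.7 CPM in DMSO and 563, 572 and 569 CPM with both compounds. Its groups did not overlap and the 3 treated libraries were close to each other (−0.82, SE 0.106, adjusted p = 0.00131, and −0.91, adjusted p = 0.000100 after adjustment), and its call held without any single library. MT-ND1, another complex I subunit, had 651 ± 104 CPM in DMSO and 381 ± 37.5 CPM with both compounds (−0.78, adjusted p = 0.0211, and −0.79, adjusted p = 0.00424 after adjustment). MT-ND6, the complex I subunit encoded on the other strand, was called after adjustment alone (−0.51, adjusted p = 0.0385). A nuclear pseudogene copy of MT-ND2, MTND2P28, fell as well (−1.08, adjusted p = 0.0164), and reads of the pair may be exchanged.

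MT-TL1, MT-TN and MT-TC, 3 tRNAs, were called lower in both fits, and their genes are printed here as the RNA strand reads them, because they are among the shortest transcripts called and lie beside the changed mRNAs. MT-TL1, a leucine tRNA, lies at chrMT:3230-3304 on the plus strand between MT-RNR2 and MT-ND1, while MT-TN, the asparagine tRNA at chrMT:5657-5729, and MT-TC, the cysteine tRNA at chrMT:5761-5826, lie on the minus strand beyond MT-ND2.
MT-TL1: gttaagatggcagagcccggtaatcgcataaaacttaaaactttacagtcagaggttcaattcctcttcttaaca
MT-TN: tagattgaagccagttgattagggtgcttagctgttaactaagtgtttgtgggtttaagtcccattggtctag
MT-TC: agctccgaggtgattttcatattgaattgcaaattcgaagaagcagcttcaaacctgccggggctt

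MT-TC was measured at 24.5, 31.7 and 25.9 CPM in DMSO and 15.4, 12.7 and 12.6 CPM with both compounds (−1.01, SE 0.139, adjusted p = 0.00210, and −1.06, adjusted p = 0.000201 after adjustment). MT-TL1 was low, with 2.95, 4.34 and 4.31 CPM in DMSO and 1.18, 1.25 and 1.31 CPM with both compounds (−1.63, SE 0.303, adjusted p = 0.0190, and −1.80, adjusted p = 0.00452 after adjustment). MT-TN had 17.2 ± 2.55 CPM in DMSO and 9.48 ± 2.34 CPM with both compounds (−0.86, adjusted p = 0.0361). All 3 had CEP plus 4SU libraries below the DMSO libraries without overlap, and MT-TC alone of them kept its call without any single library in the unadjusted fit. The large ribosomal RNA MT-RNR2 and the proline tRNA MT-TP were called lower after adjustment alone, at −0.42 and −0.75. Since the libraries were made from polyadenylated RNA, the tRNA counts cover what such a library retains of them. Nuclear genes of the respiratory chain were negative in 67 of 83 cases (median −0.14, and −0.13 after adjustment), with 1 called unadjusted, the cytochrome c1 gene CYC1 (−0.46), and none after adjustment.

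Fast-responding genes moved in both directions. Of 28 tested immediate early genes 2 rose, FOS and CYR61, and 1 fell, JUN, in both fits. Of 19 genes that ERK signalling induces as its own feedback 1 rose in both fits, DUSP5. In each fit 7.14% of the immediate early genes were higher and 3.57% lower, and 5.26% of the ERK feedback genes higher. Of all tested genes 0.643% were higher and 0.993% lower unadjusted, and 0.378% and 0.722% after adjustment. The medians of these lists were −0.08 and −0.12 unadjusted, and 0.08 and −0.05 after adjustment, so the lists as a whole lay near all tested genes. The immediate early list's median ranged from −0.15 to 0.05 over the alternatives of the unadjusted fit and thus has no fixed sign.

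FOS, a component of the transcription factor AP-1 at chr14:75278774-75282230, had 4.71, 3.69 and 4.27 CPM in DMSO and 8.70, 9.73 and 13 CPM with both compounds. The lowest treated library lay above the highest DMSO library (1.31, SE 0.194, adjusted p = 0.00434, and 1.39, adjusted p = 0.000540 after adjustment), and the call held without any single library. DUSP5, a nuclear phosphatase of ERK at chr10:110497838-110511544, had 4.36, 3.84 and 3.57 CPM in DMSO and 7.95, 7.62 and 8.54 CPM with both compounds (1.03, SE 0.175, adjusted p = 0.0125, and 1.16, adjusted p = 0.00168 after adjustment). CYR61, also called CCN1, a secreted matrix protein and a target of YAP and TEAD at chr1:85580761-85583962, had 11.4, 14.6 and 14 CPM in DMSO and 22.1, 25.7 and 23 CPM with both compounds (0.82, SE 0.132, adjusted p = 0.00852, and 0.88, adjusted p = 0.000718 after adjustment). All 3 were separated between groups and kept their calls in the GC-adjusted fit without any single library. In the unadjusted fits without 1 library DUSP5 was called in 3 of 6, with adjusted p up to 0.0816, and CYR61 in 5 of 6, with adjusted p up to 0.0711. CYR61 was the 1 of 24 tested YAP and TEAD targets that rose, and NEDD9, a scaffold of focal adhesions, the 1 that fell (−1.57, adjusted p = 0.0474), a call that no unadjusted fit without 1 library kept. Each of these is 4.17% of the list in each fit.

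JUN, the partner of FOS in AP-1, went the other way. It had 378, 414 and 479 CPM in DMSO and 298, 246 and 327 CPM with both compounds, and the highest treated library lay below the lowest DMSO library (−0.55, SE 0.108, adjusted p = 0.0262, and −0.41, adjusted p = 0.0120 after adjustment). MYC, a growth-promoting transcription factor with a short-lived mRNA, had 253, 262 and 274 CPM in DMSO and 223, 184 and 192 CPM with both compounds (−0.40, SE 0.0829, adjusted p = 0.0290, and −0.30, adjusted p = 0.0150 after adjustment). In the unadjusted fits without 1 library JUN was called in 2 of 6, with adjusted p from 0.0243 to 0.133, and MYC in 1 of 6, with adjusted p from 0.0131 to 0.134.

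RHOB, a small GTPase with a short-lived mRNA, fell from 232, 229.97 and 237 CPM to 178, 151 and 159 CPM (−0.52, SE 0.0842, adjusted p = 0.00852, and −0.36, adjusted p = 0.00522 after adjustment). SOX4, a transcription factor of progenitor cells, was at 135, 158 and 157 CPM in DMSO and 106, 113 and 112 CPM with both compounds (−0.44, SE 0.0791, adjusted p = 0.0162, and −0.41, adjusted p = 0.00367 after adjustment). HES5, a repressor induced by Notch, was lower by the largest factor of these, with 8.84, 10.6 and 12.8 CPM in DMSO and 6.12, 3.79 and 4.57 CPM with both compounds (−1.16, SE 0.198, adjusted p = 0.0131, and −0.83, adjusted p = 0.0153 after adjustment). Of 28 short-lived regulators of the MYC, ID and HES kind 3 fell and none rose unadjusted (MYC, SOX4 and CITED4), and after adjustment MYC and SOX4 fell and 1 rose, the BMP-induced ID1 at 0.52 with adjusted p = 0.0208. The lower shares of this list were 10.7% unadjusted and 7.14% after adjustment, against 0.993% and 0.722% of all tested genes. Its higher share after adjustment was 3.57%, against 0.378%. HES5 was the 1 of 15 Notch targets that was called (6.67% in each fit).

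Promoters of the called genes were searched for short motifs, in the 250 bases before each start annotated by RefSeq (GRCh38.p14), which can differ from the start in the count table's annotation. Both strands were searched for the cAMP response element with the letters TGACGTCA, for the AP-1 site with the letters TGAGTCA, for the letters CCAAT, for the GC box with the letters GGGCGG and for the TATA box with the letters TATAAA, where matches of different motifs may overlap. A RefSeq promoter was found for 87 of 114 higher, 124 of 176 lower and 11993 of 17729 tested genes. TGACGTCA was held by 8.05% of the higher genes' promoters (7), 2.42% of the lower genes' (3), 2.83% of all tested genes' and 1.65% of the 35116 promoters in the table. GGGCGG was held by 62.1%, 75.8%, 66.6% and 42.6% in the same order, beside median promoter GC of 64%, 69%, 65.2% and 58%. CCAAT was held by 42.5% and 40.3% of the higher and lower genes' promoters and 34.8% of tested genes', TATAAA by 3.45%, 5.65% and 5.59%, and TGAGTCA by 1.15%, 0.806% and 2.39%. Among calls of both fits TGACGTCA stood in 2 of 26 promoters of higher and 2 of 55 of lower genes. These shares are descriptions of letters in a window, and GC content moves with some of them.

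Genes made of a single exon made up a larger share of the lower genes than of all tested genes. The margin was small in the unadjusted fit, and few such genes were among the higher ones. Of 1787 tested single-exon genes 22 fell and 1 rose unadjusted, 23 fell and 2 rose after adjustment, and 16 fell in both fits. They made up 12.5% of the 176 lower genes unadjusted, 18% of the 128 after adjustment and 20% of the 80 lower in both. Of all genes tested they were 10.1%. The shares of single-exon genes called lower were 1.23% unadjusted and 1.29% after adjustment, against 0.993% and 0.722% of all tested genes. The number of single-exon genes also counts mitochondrial and histone genes. Without those, 241 single-exon protein-coding genes remained, of which 11 fell and 1 rose in each fit, or 4.56% lower, beside 1.1% and 0.745% lower among 13691 protein-coding genes with several exons. The median log2 fold change of the 241 was −0.19 unadjusted and −0.08 after adjustment, and their median GC content was 55.2%. In the GC-richest class, which held 94 of them, 3.19% were lower unadjusted, against 3.26% of protein-coding genes with several exons. After adjustment the shares there were 1.06% against 0.756%. In classes 2, 3 and 4, counted from the GC-poorest, unadjusted shares were 6.45%, 2.38% and 9.8%, against 0.256%, 0.434% and 1.34%. After adjustment they were 12.9%, 4.76% and 5.88%, against 0.806%, 0.75% and 0.784%. These classes held only 31, 42 and 51 of the single-exon genes. In the GC-poorest class, which held 23, the shares were 0% against 0.0704% unadjusted and 4.35% against 0.634% after adjustment. Lower in both fits were 7 of the 241, JUN, RHOB, SOX4, PCBP1, EXOSC6, DDX28 and MOCS3.

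DDX28, a helicase of mitochondrial ribosome assembly, had 39.7 ± 2.15 CPM in DMSO and 26.3 ± 2.81 CPM with both compounds (−0.60, adjusted p = 0.0153, and −0.42, adjusted p = 0.0208 after adjustment). EXOSC6, a core subunit of the RNA exosome that degrades RNA from its 3′ end, had 106 ± 4.41 CPM in DMSO and 79.1 ± 4.39 CPM with both compounds (−0.42, adjusted p = 0.0237). PCBP1, which binds C-rich RNA, had 114 ± 6.57 CPM in DMSO and 84.9 ± 12.5 CPM with both compounds (−0.43, adjusted p = 0.0428), and MOCS3, an enzyme of molybdenum cofactor synthesis and tRNA thiolation, had 28.9, 23.8 and 28.1 CPM in DMSO and 18.7, 18.9 and 18.9 CPM with both compounds (−0.52, adjusted p = 0.0339). The groups did not overlap for any of the 7, as for all 80 genes lower in both fits, beside 28.7% of all tested genes. Lower in the unadjusted fit alone were CCDC85B, GAS1, SOWAHA and CITED4, and after adjustment alone HNRNPA0, EXOC8, CSTF2T and MARS2. The 1 higher gene was HNRNPA1L2 unadjusted and the heat shock gene HSPA1B after adjustment, and both have near-identical copies. Of the 241, 21 were called lower unadjusted without CEP plus 4SU replicate 1 and 0 to 2 without any other single library, and 4 to 7 after adjustment.

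Collagens and matrix genes were another group with several members on the lower side. Of 60 tested collagens and matrix genes 6 fell unadjusted and 5 after adjustment, 3 of them in both fits, and none rose. The lower shares were 10% and 8.33%, against 0.993% and 0.722% of all tested genes. Unadjusted, 54 of the 60 had a negative log2 fold change (median −0.29, and −0.22 after adjustment), beside 8862 of all 17729 tested genes. The sum of the matrix genes was 2336, 2406 and 2319 CPM in DMSO and 1920.1, 1796 and 1949.96 CPM with both compounds, without overlap. COL18A1, a basement membrane collagen and the source of endostatin, had 135, 142 and 139 CPM in DMSO and 93.8, 74.3 and 84.9 CPM with both compounds (−0.72, SE 0.127, adjusted p = 0.0162, and −0.35, adjusted p = 0.00845 after adjustment). Agrin, AGRN, a heparan sulfate proteoglycan of basement membranes, had 161 ± 6.33 CPM in DMSO and 106 ± 15.9 CPM with both compounds (−0.60, adjusted p = 0.0296, and −0.27, adjusted p = 0.0245 after adjustment). COL4A2, a chain of collagen IV, had 119 ± 5.55 CPM in DMSO and 88.9 ± 7.87 CPM with both compounds (−0.42, adjusted p = 0.0483). Called unadjusted alone were COL6A1, COL2A1 and LAMA5, and after adjustment alone COL4A5 and COL14A1.

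The matrix list does not hold TNC, ADAMTS1, TGFB1 or PLAT, which fell in both fits. Nor does it hold CYR61, the secreted matrix protein described above, which rose in both. TNC, the matrix glycoprotein tenascin-C, was at 8.40, 6.11 and 8.71 CPM in DMSO and 4.35, 4.41 and 3.47 CPM with both compounds (−0.93, SE 0.181, adjusted p = 0.0262, and −0.87, adjusted p = 0.0176 after adjustment). ADAMTS1, a secreted protease that cleaves proteoglycans, had 259.99 ± 21.9 CPM in DMSO and 196 ± 4.44 CPM with both compounds (−0.41, adjusted p = 0.0238, and −0.46, adjusted p = 0.00114 after adjustment). TGFB1, the cytokine that induces matrix genes, had 102 ± 3.63 CPM in DMSO and 69.8 ± 11.8 CPM with both compounds (adjusted p = 0.0335, and 0.0208 after adjustment). PLAT, tissue plasminogen activator, had 72 ± 1.64 CPM in DMSO and 51.8 ± 4.85 CPM with both compounds (−0.47, adjusted p = 0.0262). Fibroblast markers, 5 of them tested, moved alongside, with a summed 5.95 to 6.03 FPKM in DMSO and 4.43 to 5.11 FPKM with both compounds, COL1A2 at 0 in all 6 libraries and none of the 5 called. The part of such cells in the matrix result was not tested. Without CEP plus 4SU replicate 1, 12 matrix genes were called lower unadjusted, and without any other single library none was, while 0 to 3 were after adjustment.

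Clustered histone genes, whose main mRNAs lack a poly(A) tail, gave 3 lower calls of 34 unadjusted and 2 after adjustment, and none higher. The lower shares were 8.82% and 5.88%, against 0.993% and 0.722% of all tested genes. The histone median was −0.42 (−0.36 after adjustment) with 31 of 34 negative. Their sum did not overlap, at 258, 260.1 and 285 CPM in DMSO and 205, 186 and 205 CPM with both compounds. HIST1H2AG, an H2A gene, had 5.96 ± 0.216 CPM in DMSO and 3.11 ± 0.673 CPM with both compounds (−0.93, adjusted p = 0.0367). HIST2H2BC, a transcribed pseudogene of H2B, had 11.4 ± 0.372 CPM in DMSO and 6.58 ± 0.651 CPM with both compounds (−0.80, adjusted p = 0.0359). The third, HIST1H2BK, was called unadjusted alone (−0.47, and −0.23 with adjusted p = 0.185 after adjustment). Histone genes are near-identical to each other, so reads may be exchanged, and their unadjusted calls numbered 2 without CEP plus 4SU replicate 1, 1 without DMSO replicate 2 and 0 without any of the other libraries, and 0 to 2 after adjustment.

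**Figure D2:**
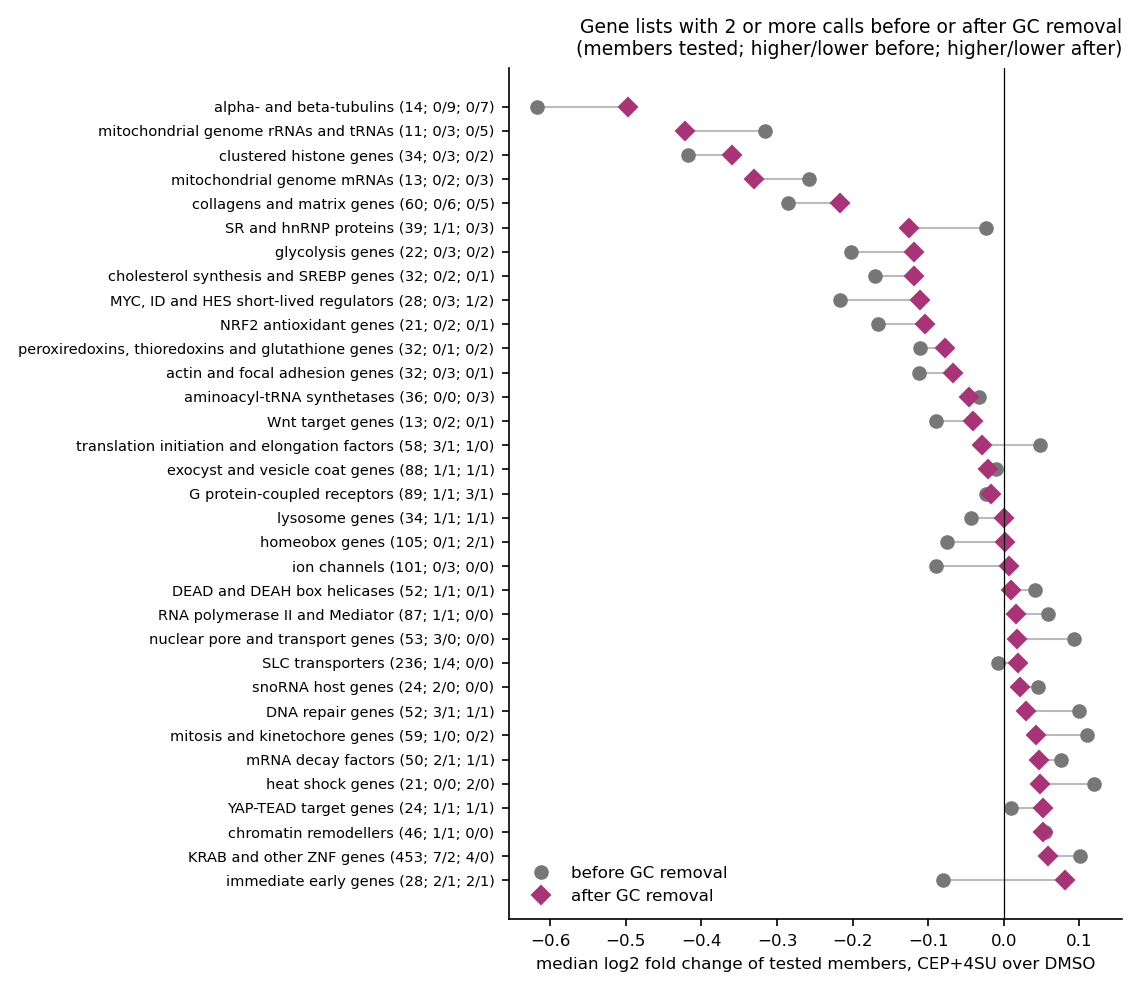
Median log2 fold change of CEP plus 4SU against DMSO in the 33 gene lists with at least 2 calls in either fit, one point for the unadjusted and one for the GC-adjusted fit. Tubulins and clustered histones have the lowest medians unadjusted (−0.62 and −0.42), and tubulins and mitochondrial rRNAs and tRNAs after adjustment (−0.50 and −0.42).

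Among metabolic genes, 3 of 22 glycolysis genes fell unadjusted (13.6%, against 0.993% of all tested genes) and 2 after adjustment (9.09%, against 0.722%), PFKL (liver phosphofructokinase, −0.27 after adjustment) and ENO1 (enolase, −0.33 and −0.23) in both fits. Of 32 genes of cholesterol synthesis 2 fell (6.25%) and then 1 (3.12%), LSS (lanosterol synthase, −0.46 and −0.32). ACLY, which makes cytosolic acetyl-CoA, fell in both fits (−0.30 and −0.24). Cytoplasmic ribosomal protein genes were negative in 71 of 79 cases with a median of −0.14, or −0.12 after adjustment, yet none was called unadjusted and 1 was after adjustment, RPL4 (−0.27, adjusted p = 0.0385). RPL22L1, a paralog of the ribosomal protein RPL22 that is not in that list, fell in all fits that left out 1 library, from 53.9, 48.5 and 47.9 CPM to 27.6, 25.8 and 25.7 CPM (−0.93, SE 0.116, adjusted p = 0.00112, and −1.03, adjusted p = 1.59e-05 after adjustment).

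HMOX1, a target of the stress-responsive factor NRF2, fell. Of 21 antioxidant genes controlled by NRF2, the factor that cysteine-reactive electrophiles are known to activate, none rose in either fit and HMOX1 fell in both (medians −0.17 and −0.10). The share of the list called lower was 9.52% unadjusted and 4.76% after adjustment, against 0.993% and 0.722% of all tested genes. The gene, which encodes the heme-degrading enzyme heme oxygenase 1, lies at chr22:35380361-35394214 and had 93.6, 90.8 and 90.2 CPM in DMSO and 63.5, 51.2 and 56.7 CPM with both compounds. Its groups lay apart (−0.68, SE 0.102, adjusted p = 0.00468, and −0.51, adjusted p = 0.000395 after adjustment) and its call held without any single library in both fits.

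Of 21 heat shock genes none was called unadjusted and 2 rose after adjustment, DNAJB6 (0.23, adjusted p = 0.0484) and HSPA1B (0.32, adjusted p = 0.0153). That is 9.52%, against 0.378% of all tested genes. PPP1R15A, which restarts translation, was the 1 of 24 integrated stress response genes called, after adjustment alone (0.47), and ADM, adrenomedullin, the 1 of 18 hypoxia genes (0.63). The unfolded protein response gave 1 lower call of 21 (CRELD2), p53 targets 1 higher of 24 (CCNG1) and interferon response genes 1 higher of 16 (EIF2AK2), all unadjusted and none after adjustment. NF-kB targets (13 tested) and metallothioneins with the zinc response (6 tested) gave none in either fit. A list with no call can still hold changes below what these libraries show.

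The higher genes were spread over many functions. Of the 35 higher in both fits, 10 stood in any of the 63 pathway and family lists, against 33 of the 80 lower in both. These lists hold 3095 of the 17729 tested genes and were chosen with earlier results of these data known. Zinc finger (ZNF) genes, of the KRAB kind and of other kinds, gave 7 higher and 2 lower calls of 453 unadjusted, with a list median of 0.10. After adjustment 4 were called higher and none lower, with a list median of 0.06. These are 1.55% higher and 0.442% lower unadjusted, against 0.643% and 0.993% of all tested genes, and 0.883% higher after adjustment, against 0.378%. ZNF266 had 30.2 ± 1.72 CPM in DMSO and 43.9 ± 1.13 CPM with both compounds (0.54, adjusted p = 0.0290, and 0.49, adjusted p = 0.0120 after adjustment). ZNF550 had 10.9 ± 0.866 CPM in DMSO and 16.8 ± 1.66 CPM with both compounds (0.63, adjusted p = 0.0292). The list's higher calls numbered 19 without CEP plus 4SU replicate 1 and none without any other single library in the unadjusted fit, and 0 to 3 after adjustment.

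BCLAF1, a nuclear protein of transcription and splicing, had the smallest adjusted p of the higher genes after FOS in the unadjusted fit, though not after adjustment. It had 481, 471 and 488 CPM in DMSO and 620.3, 786 and 681 CPM with both compounds (0.54, SE 0.0829, adjusted p = 0.00613, and 0.30, adjusted p = 0.0102 after adjustment). THRAP3, which belongs to the same protein family and functions in splicing, rose as well (0.30, adjusted p = 0.0356, and 0.28, adjusted p = 0.0150 after adjustment). BRCA1, which acts in repair by homologous recombination, had 133, 133 and 142 CPM in DMSO and 159.9, 186 and 176 CPM with both compounds (0.36, SE 0.0798, adjusted p = 0.0356, and 0.27, adjusted p = 0.0264 after adjustment). It was the 1 of 52 DNA repair genes that rose in both fits, where DDB1, which recognises UV lesions with DDB2, was the 1 that fell (−0.26 and −0.29). BRCA2 and NBN, which act with it in double-strand break repair, were called unadjusted alone (0.51 and 0.37, and 0.29 and 0.17 after adjustment). Higher shares of the repair list were 5.77% unadjusted and 1.92% after adjustment, against 0.643% and 0.378% of all tested genes. Its lower share was 1.92% in each fit, against 0.993% and 0.722%.

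TBK1, a kinase of innate immune signalling, had 41.7 ± 3.37 CPM in DMSO and 58.1 ± 3.31 CPM with both compounds (0.48, adjusted p = 0.0262). PUM2, which binds and represses mRNAs, had 104 ± 3.26 CPM in DMSO and 139.7 ± 10.3 CPM with both compounds (adjusted p = 0.0339, and 0.0385 after adjustment). Of the 50 mRNA decay factors 1 rose in both fits and 1, EXOSC6, fell, against 0.197% and 0.451% of all tested genes. Unadjusted, 2 of the 50 rose and 1 fell, and the list median was 0.08, or 0.05 after adjustment. Among noncoding RNAs TUG1 had 159 ± 4.91 CPM in DMSO and 206 ± 11.1 CPM with both compounds (0.37, adjusted p = 0.0300) and LINC00665 had 17.6 ± 0.764 CPM in DMSO and 25.2 ± 0.849 CPM with both compounds (0.52, adjusted p = 0.0262). The snoRNA hosts GAS5 and SNHG1, whose mature transcripts are targets of nonsense-mediated decay, were called higher unadjusted (0.36 and 0.34) and not after adjustment (adjusted p = 0.0536 and 0.0602).

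Membrane and trafficking genes among those higher in both fits were LPAR3, a receptor for lysophosphatidic acid (0.48 and 0.40), ATP6V0A1, a subunit of the proton pump that acidifies lysosomes (0.38 and 0.39), AP3M2, a subunit of an endosomal coat (0.41 and 0.37), and the endoplasmic reticulum shaping proteins ATL3 (0.47 and 0.33) and LNPK (0.45 and 0.26). ZDHHC11, a palmitoyltransferase with the near-identical copy ZDHHC11B, had 3.53 ± 0.362 CPM in DMSO and 6.49 ± 0.575 CPM with both compounds (0.88, adjusted p = 0.0425), and ASAH2B, a copy of part of the ceramidase gene ASAH2, had 11.6 ± 0.568 CPM in DMSO and 17.9 ± 2.11 CPM with both compounds (0.62, adjusted p = 0.0281). These 2 levels may include reads of their copies. The largest rise on the list, MAGED4, rested on uneven libraries, with 0.836, 0.985 and 0.622 CPM in DMSO and 8.01, 4.65 and 17.7 CPM with both compounds, and its twin MAGED4B had 0.572, 0.887 and 0.829 CPM in DMSO and 21.9, 0.527 and 3.62 CPM with both compounds. Reads of MAGED4 and MAGED4B cannot be assigned apart, so the rise of either is uncertain.

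Among the other genes with the largest changes in both fits, KISS1R, the kisspeptin receptor, fell (−1.41, and −1.04 after adjustment) and ZBTB44, a zinc finger regulator of transcription, rose (0.48, and 0.30 after adjustment). The 5.8S ribosomal RNA gene RNA5-8SN2, a multicopy gene, was lower (−1.33). The antisense genes ASH1L-AS1 (−1.26) and AC098864.1 (−0.96) were lower and AL596202.1 (1.23) and AP001469.3 (0.84) higher, and without strand information their reads cannot be told from those of the genes they overlap.

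Several lists gained or lost their calls with the GC adjustment, and some of them are given here. Nuclear pore and transport genes gave 3 of 53 higher (XPO1, KPNA4 and NUP54), or 5.66% against 0.643% of all tested genes, and then none. SLC transporters gave 1 higher (SLC25A36) and 4 lower (SLC25A6, SLC25A11, SLC9A3R2 and SLC29A4) of 236, and then none. Their 0.424% higher and 1.69% lower are near the 0.643% and 0.993% of all tested genes. Ion channels gave 3 lower of 101 (KCNJ4, CACNA1H and ASIC1), or 2.97% against 0.993%, and then none. Aminoacyl-tRNA synthetases gave no call of 36 and then 3 lower (IARS, YARS and MARS2), or 8.33% against 0.722%. In the GC-adjusted fits without 1 library no synthetase was called. Among SR and hnRNP proteins, which bind pre-mRNA, 1 rose and 1 fell of 39 unadjusted (2.56% each). After adjustment 3 fell (HNRNPA1, HNRNPA0 and HNRNPC), or 7.69% against 0.722% of all tested genes. HNRNPA1 was lower in both fits (1959.9 ± 75.9 CPM in DMSO and 1649 ± 61.4 CPM with both compounds, −0.25 and −0.35). Of the 63 lists, 25 had a call in both fits and 13 had none in either. The latter were NF-kB targets, metallothioneins, mitochondrial ribosomal proteins, spliceosome core, cilium and centrosome, proteasome, CCT and prefoldin, ubiquitin-specific proteases, autophagy, cyclins, nucleotide and folate metabolism, cadherins, and the 9 RNA-binding proteins that the study follows. The log2 fold changes of these 9 had a median of 0.01 in both fits.

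Few calls held whichever library was left out. In the unadjusted fit 9 genes did, FOS higher and HMOX1, MT-ND2, MT-TC, RPL22L1, SHISA8, TUBB, TUBB2A and TUBB4B lower. After adjustment 27 did, 3 higher and 24 lower, and 8 did in both fits, namely the 9 except SHISA8. The 3 higher were FOS, DUSP5 and CYR61. The 24 lower included, beside genes named above, GJA1, the gap junction protein connexin 43 (−0.37, adjusted p = 0.00565), PLS3, an actin bundling protein (−0.32, adjusted p = 0.00355), YBX3, a cold shock domain RNA-binding protein (−0.49, adjusted p = 0.00507), LRBA, a vesicle trafficking protein (−0.50, adjusted p = 0.000302), and RBM14, a coactivator of transcription and splicing (−0.38, adjusted p = 0.00388).

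Each compound alone was compared with the same 3 DMSO libraries, so the comparisons share their controls and are given side by side only. All these values are of the unadjusted fit and carry the GC trend that differed between libraries. Slopes on GC content were 0.044, −0.172 and −0.123 in the CEP libraries and 0.131, −0.016 and 0.025 in the 4SU libraries. FOS had log2 fold changes of 1.54 with CEP alone (adjusted p = 0.00147), −0.24 with 4SU alone (adjusted p = 0.862) and 1.31 with both. DUSP5 had 1.34 with CEP alone (adjusted p = 0.00147), 0.20 with 4SU alone (adjusted p = 0.865) and 1.03 with both. For CYR61 they were 0.52 with CEP alone (adjusted p = 0.173), 0.04 with 4SU alone (adjusted p = 0.973) and 0.82 with both. The 3 genes were thus called in the combination, FOS and DUSP5 with CEP alone too, and none of them with 4SU alone, and the differences between these changes were not tested. RPL22L1 had 0.08 with CEP alone (adjusted p = 0.725), −0.79 with 4SU alone (adjusted p = 0.0336) and −0.93 with both. HMOX1 had −0.18 with CEP alone (adjusted p = 0.338), −0.42 with 4SU alone (adjusted p = 0.521) and −0.68 with both.

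TUBB4B had −0.83 with CEP alone (adjusted p = 0.00147), −0.30 with 4SU alone (adjusted p = 0.689) and −0.92 with both. TUBB2A had −0.73 with CEP alone (adjusted p = 0.0462), −0.35 with 4SU alone (adjusted p = 0.721) and −1.12 with both. Both beta-tubulins were called lower with CEP alone and with both compounds and not with 4SU alone, at the negative values given. MT-ND2 had −0.88 with CEP alone (adjusted p = 0.00147), −0.21 with 4SU alone (adjusted p = 0.776) and −0.82 with both. For JUN the values were −0.39 with CEP alone (adjusted p = 0.173), 0.02 with 4SU alone (adjusted p = 0.981) and −0.55 with both, and for RHOB −0.32 with CEP alone (adjusted p = 0.173), −0.12 with 4SU alone (adjusted p = 0.821) and −0.52 with both. BCLAF1 had 0.24 with CEP alone (adjusted p = 0.191), 0.29 with 4SU alone (adjusted p = 0.557) and 0.54 with both.

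**Figure D3:**
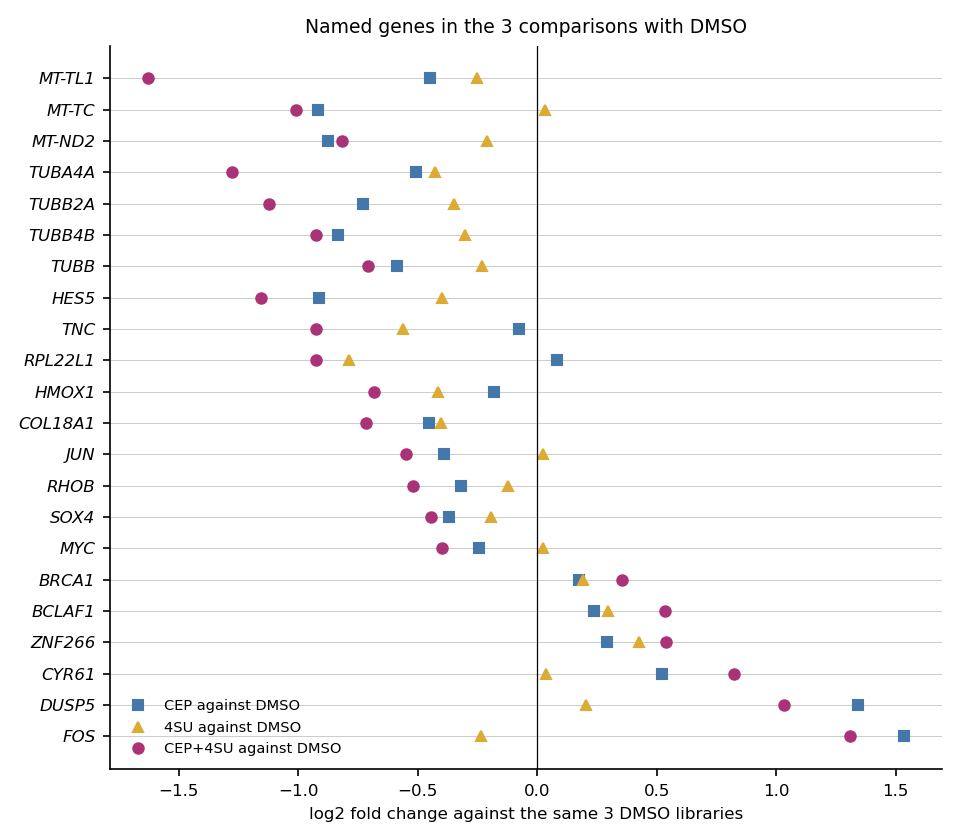
Log2 fold changes of the unadjusted fit against the same 3 DMSO libraries for 22 named genes, with 1 point each for CEP alone, 4SU alone and both compounds, without error bars. FOS and DUSP5 lie far from 0 with CEP alone and with both and near 0 with 4SU alone, and RPL22L1 lies far from 0 with 4SU alone and with both and near 0 with CEP alone.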

How the data were processed

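RNA-Seq libraries of HEK293T cells were grouped by the treatment on their labels, with 3 libraries each for DMSO, CEP, 4SU and CEP plus 4SU. The authors prepared libraries from poly-T-selected RNA, sequenced paired reads, removed adapter, poly-N and low-quality reads, aligned the rest to GRCh38 (hg38) with HISAT2 2.0.5 and counted fragments on genes with featureCounts 1.5.0-p3, per the submitters' processing notes, which also list DESeq2 and GATK 4.1.1.0. The deposited count values are raw whole numbers. FPKM values, also deposited by the authors, are on a linear scale, divided by gene length and library size, and served for the markers and 1 alternative. Strandedness of counting was not given in the sources used here, so values of antisense genes are uncertain. The treatment protocol on the labels gives the CEP dose in mM, and the design text and the methods in µM, as used here.

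Computations used R 4.3.3 with edgeR 4.0.16, limma 3.58.1 and DESeq2 1.42.0. Genes were filtered with filterByExpr (minimum count 10, minimum total 15), scaled by TMM and fitted over all 12 libraries in one quasi-likelihood model of 4 groups, with prior counts of 0.125 for fold changes and 2 for log2 CPM. Standard errors are Wald errors scaled by the quasi-likelihood dispersion. For the GC-adjusted fit, each library's loess trend (span 0.5, degree 1, genes with a mean of at least 1 CPM) on the GC content of merged GENCODE 29 exons was added to the offsets, which removed 11 of 17729 tested genes that had no GC value. GC content was matched for 58676 of 58735 genes. The fits were tested on simulated counts with known changes.

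Members and gene lists were chosen with earlier results of these data known. There were 63 pathway and family lists, which hold 3095 tested genes, 5 marker lists and 7 annotation classes. The text names the 15 genes with the largest rise and the 15 with the largest fall among those called in both fits, at 1 CPM or more on average and without overlap of the groups, and in each list up to 4 called members and those called in both fits, or at most 2 members where none was called. It leaves out some list members, and a few genes that the rule selects are not reported here. Single-exon genes, genes called after adjustment alone and genes whose calls held without any library were named after their values were seen. Precision is limited by the 3 libraries a group. Alternatives were DESeq2, other scalings, filters, thresholds, only the 6 libraries, a replicate block, a length trend, limma on log2 FPKM (pseudocount 1 or 0.1), another GC measure, and each library left out.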

Additional observations from a re-analysis of the deposited data

How the results depend on the processing

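The number of calls was the result that moved most with the processing. For the unadjusted fit (290), DESeq2 called 1247 genes, no low-count filter 1234, a fit of the 6 libraries alone 567, limma on log2(FPKM + 1) 21 and on log2(FPKM + 0.1) 24, an adjusted p of 0.1 gave 1195 and one of 0.5, the threshold printed in the study's methods, 8336. Leaving out 1 library gave 14 to 812 calls. For the GC-adjusted fit (195), DESeq2 called 532 genes, no low-count filter 420, the 6 libraries alone 657, an adjusted p of 0.1 gave 469 and one of 0.5 gave 4406. Leaving out 1 library gave 47 to 105. The cause of these differences was not tested, beyond the looser thresholds and the smaller numbers of libraries themselves. Other alternatives stayed within 1.5 times of these counts, from 312 to 356 unadjusted and from 193 to 283 adjusted. Same-numbered libraries of the 2 groups compared had correlations of −0.012, 0.017 and −0.0037 between their deviations from the group means, below the 0.1 required to treat the numbers as pairs. Between the treated groups of the model these were −0.047 to 0.14, with 1 of 9 over 0.1, and replicate 1 had the highest and replicate 2 the lowest GC slope in CEP, in 4SU and in CEP plus 4SU. With the replicate number as a block 1667 genes were called unadjusted and 235 with the GC trend removed. Over the named genes, 2947 values from alternatives held 1885 of the same call, 1055 no longer called, 7 newly called and 0 with the opposite sign.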
